A study of Penicillium oxalicum with 9 samples.

Results

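Ribosomal protein genes of the filamentous fungus Penicillium oxalicum, a producer of cellulases, were followed in RNA sequencing of 9 cultures on cellulose. The genes described here are the 47 whose KEGG orthologue entry names a ribosomal protein without the eukaryotic-type name (a letter L or S, a number and the suffix e). They are 47 of 9786 genes in all, and 76 further genes have the eukaryotic-type name. Methyltransferases, acetyltransferases and kinases were to be left out, and 0 genes were removed by that step. The names fall into 3 kinds. There are 15 that carry the word mitochondrial (such as L46 or S23), 28 that have the plain numbers used for bacterial and organellar ribosomes (such as L5 or S12), and 4 that belong to the cytosolic ribosome, namely the stalk proteins LP0, LP1 and LP2 and the small-subunit protein SAe. The last 4 are included because their names hold no number of the searched form. The 43 others are called mitochondrial-type here. That is a statement on names: the table describes all 47 only as hypothetical proteins, and its Gene Ontology column names a mitochondrial location for 2 of them, L47 and S23. All 47 names are distinct, 29 belong to the large and 18 to the small subunit, and 4 (S6, S9, L1 and SAe) rest on an orthologue match that was not the first-ranked one.

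Each culture belonged to 1 of 3 deletion strains with 3 biological replicates each: deletion of PoflbC (dPoflbC), of PoClrC (dPoClrC) and of CA (dCA). The series title calls the strains transcription factor mutants, and the labels do not explain CA. All 9 cultures had the same history at 30 °C and 200 rpm in Vogel's medium, with 22 h in 2% glucose, 2 h without carbon and 4 h in 2% cellulose. No unmutated strain is among the samples analysed here, so each comparison sets one deletion strain against another, and any mutation that all 3 may share is not given in the labels. The annotation names flbC or clrC for 0 genes, so the deleted genes could not be checked by name.

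A fungal cell makes proteins with separate cytosolic and mitochondrial ribosomes. The cytosolic ribosome translates nuclear messenger RNAs, while the mitochondrial ribosome descends from a bacterial one and translates the few messenger RNAs of the mitochondrial genome, mostly for membrane subunits of the respiratory chain. Nearly all proteins of the fungal mitochondrial ribosome are encoded in the nucleus, made in the cytosol and imported, so their transcripts are found with all others in total RNA. Many have bacterial relatives and keep bacterial numbers, and others were added in mitochondria. The number alone does not tell these apart, since some relatives of bacterial proteins are numbered above the bacterial range.

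Libraries held 6.49 to 7.76 M reads in genes (M, 1e+06), and 8681 genes had enough reads to be tested. All 47 members were tested, with 36 to 4567 reads per member and library. Levels are given as RPKM (reads per kilobase of the gene's coding length and per M gene reads), per library in the order of replicates 1, 2 and 3 or as mean ± SD (n = 3). Log2 fold changes and their standard errors come from edgeR's quasi-likelihood test after TMM scaling of the libraries. The words rose and fell are kept for genes with a Benjamini-Hochberg adjusted p under 0.05 over all genes tested and a log2 fold change of at least 1 in either direction; such genes are also termed called. The library of dCA replicate 2 stood apart: its 10 highest genes held 15.7% of its reads, against 5.53% to 11.2% in the 8 others. For the members, the main results that rest on it are given with and without it. For the other genes named below they are not. In bulk RNA, fewer cells that express a gene and less of its RNA per cell cannot be told apart.

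The 47 members split into 2 patterns. Both kinds were by median highest in dPoflbC. The 4 cytosolic stalk and SA genes were low in dCA and high in both other strains. For the 43 mitochondrial-type genes, dPoClrC lay closer to dCA than to dPoflbC by median fold change. In dPoClrC against dCA the median log2 fold change was 1.69 for the 4 and 0.21 for the 43. In dPoflbC against dPoClrC it was 0.78 and 0.66. The median of the 43 was 103, 107 and 100.2 RPKM in dPoflbC, 58.8, 57.3 and 53.9 RPKM in dPoClrC and 44.7, 28.9 and 42.1 RPKM in dCA. Each dPoflbC library lay above each dPoClrC library, and each of those above each dCA library. The median of the 4 was 873, 873 and 888 RPKM in dPoflbC, 486, 388 and 340.3 RPKM in dPoClrC and 149.6, 47.4 and 121 RPKM in dCA. By mean RPKM, 45 of the 47 members had the order dPoflbC, dPoClrC, dCA from high to low, and the exceptions were L25 (PDE_05477) and YMR-31 (PDE_02554).

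**Figure D1:**
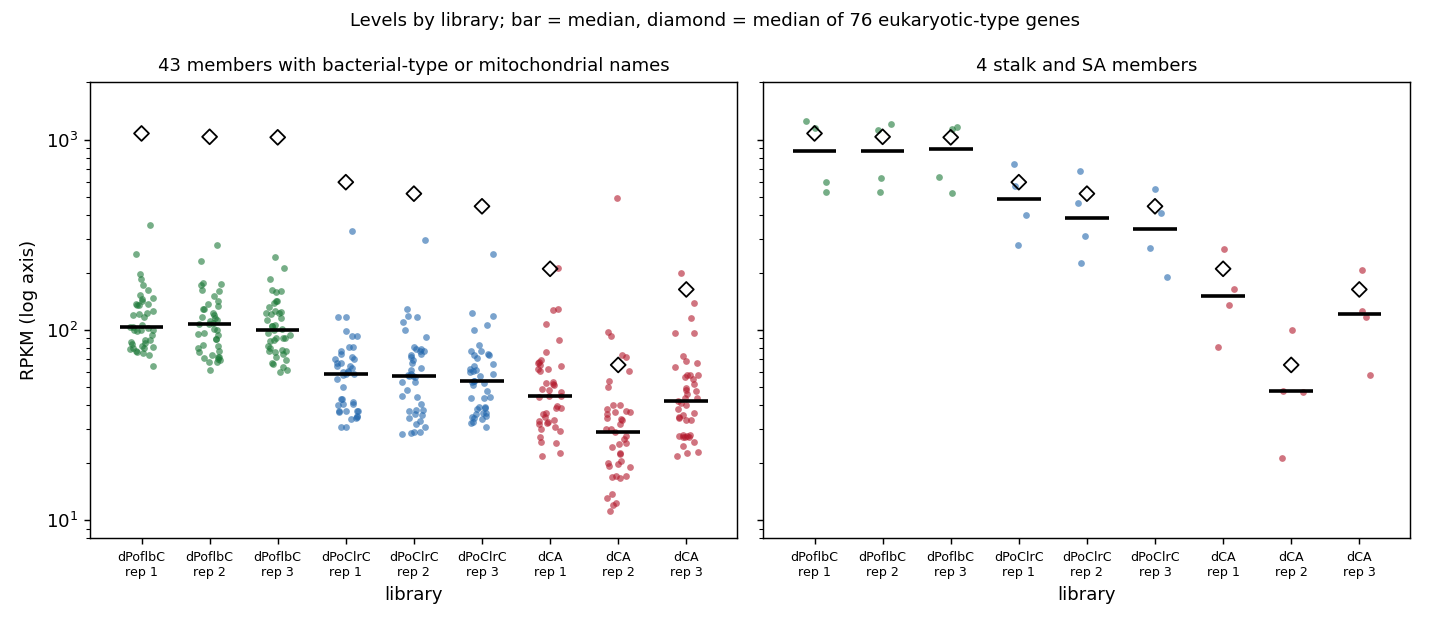
RPKM on a log axis for each member (points) in each of the 9 libraries, with the 43 mitochondrial-type genes on the left and the 4 stalk and SA genes on the right; bars are medians and open diamonds are the median of the 76 ribosomal protein genes with eukaryotic-type names. The bar on the left falls from 100.2 to 107 RPKM in dPoflbC to 28.9 to 44.7 RPKM in dCA, whereas the diamonds fall from 1028 to 1077 to 65.3 to 209 RPKM; the high red point in dCA replicate 2 is YMR-31.

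In dPoflbC against dCA, 22 of the 47 members rose and 0 fell (46.8% of the members; of all genes tested 11.4% rose and 15.8% fell). The 22 were all 4 stalk and SA genes and 18 of the 43 mitochondrial-type genes. The median log2 fold change of the 47 was 0.95, against -0.07 over all genes tested. By adjusted p alone, 42 members were higher (27.1% of all genes tested were) and 1, L25, was lower (33.8%). Scaled levels of 45 members were higher in dPoflbC with no overlap between the strains, which held for 30.9% of all genes tested; 1 member was lower with no overlap (37.2%). Without dCA replicate 2, 14 of the 22 were still called and the median was 0.84.

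The P stalk is the arm of the cytosolic large subunit that recruits the GTPases of translation, with LP0 at its base and copies of LP1 and LP2 at its tip. LP1 (PDE_02590) was at 1149, 1119 and 1141 RPKM in dPoflbC, 572, 465 and 412 RPKM in dPoClrC and 164, 47.9 and 125 RPKM in dCA. The 3 strains did not overlap, and dCA replicate 2 was the lowest library. Its log2 fold change was 2.81 ± 0.28 (SE) in dPoflbC against dCA (adjusted p = 1.55e-05) and 1.85 ± 0.27 in dPoClrC against dCA (adjusted p = 0.000794). LP2 (PDE_03779), the member with the highest mean level (685 RPKM over the 9 libraries), was at 1249.7, 1203 and 1163 RPKM in dPoflbC, 743, 683 and 552 RPKM in dPoClrC and 267, 99.1 and 206 RPKM in dCA. It rose by 2.13 ± 0.22 in dPoflbC and by 1.53 ± 0.22 in dPoClrC, both against dCA on the log2 scale (adjusted p = 2.21e-05 and 0.000716). For LP0 (PDE_02971) the libraries were at 597, 627 and 635 RPKM in dPoflbC, 399, 311 and 269 RPKM in dPoClrC and 135, 46.8 and 117 RPKM in dCA. Again no strain overlapped another, and LP0 rose by 2.11 ± 0.26 and 1.46 ± 0.25 (log2) in the same comparisons (adjusted p = 5.97e-05 and 0.00191).

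SAe (PDE_05108) is a protein of the cytosolic small subunit and a relative of bacterial S2. It was at 530.5, 530.2 and 524 RPKM in dPoflbC, 279, 225 and 189.8 RPKM in dPoClrC and 81.0, 21.3 and 58.1 RPKM in dCA. The dPoflbC libraries had an SD of 3.53 RPKM, while those of dCA spanned 21.3 to 81.0 RPKM. Its log2 fold change was 2.79 ± 0.31 in dPoflbC and 1.87 ± 0.30 in dPoClrC against dCA (adjusted p = 3.37e-05 and 0.00131). The median of the 4 was 2.46 and 1.69 in these comparisons, beside 2.33 and 1.59 for the 75 tested genes with eukaryotic-type names. Without dCA replicate 2 the medians of the 4 were 2.20 and 1.44, and all 4 were called in both. Both comparisons use the dCA libraries, so their values are not independent.

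Of the 26 large-subunit members of mitochondrial type, 10 rose in dPoflbC against dCA (38.5%, beside 11.4% of all genes tested). Among them were L7/L12, L11 and L1, which lie in arms of the bacterial subunit, and the others of the 10 are given below. L1 was named with L7/L12 and L11 after its values were seen. L7/L12 (PDE_02446), which forms the bacterial-type stalk and has the role there that LP1 and LP2 have in the cytosol, was at 196, 171 and 185 RPKM in dPoflbC, 81.1, 80.9 and 73.5 RPKM in dPoClrC and 62.0, 37.1 and 55.0 RPKM in dCA. The strains did not overlap. Its log2 fold change against dCA was 1.27 ± 0.11 (adjusted p = 4.92e-06). L11 (PDE_07512), at the base of that stalk in bacteria, was at 81.4, 72.3 and 77.3 RPKM in dPoflbC, 37.3, 28.5 and 36.1 RPKM in dPoClrC and 29.3, 11.995 and 27.2 RPKM in dCA and rose by 1.20 ± 0.20 (adjusted p = 0.000454). The change of L11 was 1.01 without dCA replicate 2, which at 11.995 RPKM was the lowest library. L1 (PDE_09511), the mobile arm beside the exit site for transfer RNA in bacteria, rose by 1.10. L6 (PDE_08757), near the factor-binding site in bacteria, had 0.95 and stayed under the fold minimum.

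L5 (PDE_09351), which binds the 5S ribosomal RNA in bacteria, had the highest fold change of the 43. It was at 86.5, 89.6 and 88.4 RPKM in dPoflbC, 40.3, 30.8 and 34.4 RPKM in dPoClrC and 25.4, 11.1 and 22.8 RPKM in dCA. The 3 dPoflbC libraries had an SD of 1.53 RPKM, and dCA replicate 2 was again the lowest. L5 rose by 1.61 ± 0.17 (log2) in dPoflbC against dCA (adjusted p = 2.64e-05), and by 1.43 without dCA replicate 2. L46 (PDE_07841), a protein that bacterial ribosomes lack, came next. Its libraries were at 85.6, 80.4 and 77.8 RPKM in dPoflbC, 37.6, 38.0 and 34.6 RPKM in dPoClrC and 21.7, 13.7 and 21.6 RPKM in dCA, with no overlap. It rose by 1.53 ± 0.10 (adjusted p = 1.29e-06). L47 (PDE_03085), the mitochondrial relative of bacterial L29, was at 144, 162 and 161 RPKM in dPoflbC, 70.3, 77.0 and 71.1 RPKM in dPoClrC and 52.4, 33.9 and 48.3 RPKM in dCA and rose by 1.23 ± 0.10 (adjusted p = 4.73e-06). The gene named L15, mitochondrial (PDE_09826) was at 109 ± 6.29 RPKM in dPoflbC and 31.6 ± 6.37 RPKM in dCA and rose by 1.21 ± 0.12 (adjusted p = 1.22e-05). The plain-named L15 (PDE_00757) is a different gene, at a log2 fold change of 0.82. L23 (PDE_07519), which lies at the exit of the peptide tunnel in bacteria, L24 (PDE_02564) and L35 (PDE_07396) rose by 1.08, 1.07 and 1.12.

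**Figure D2:**
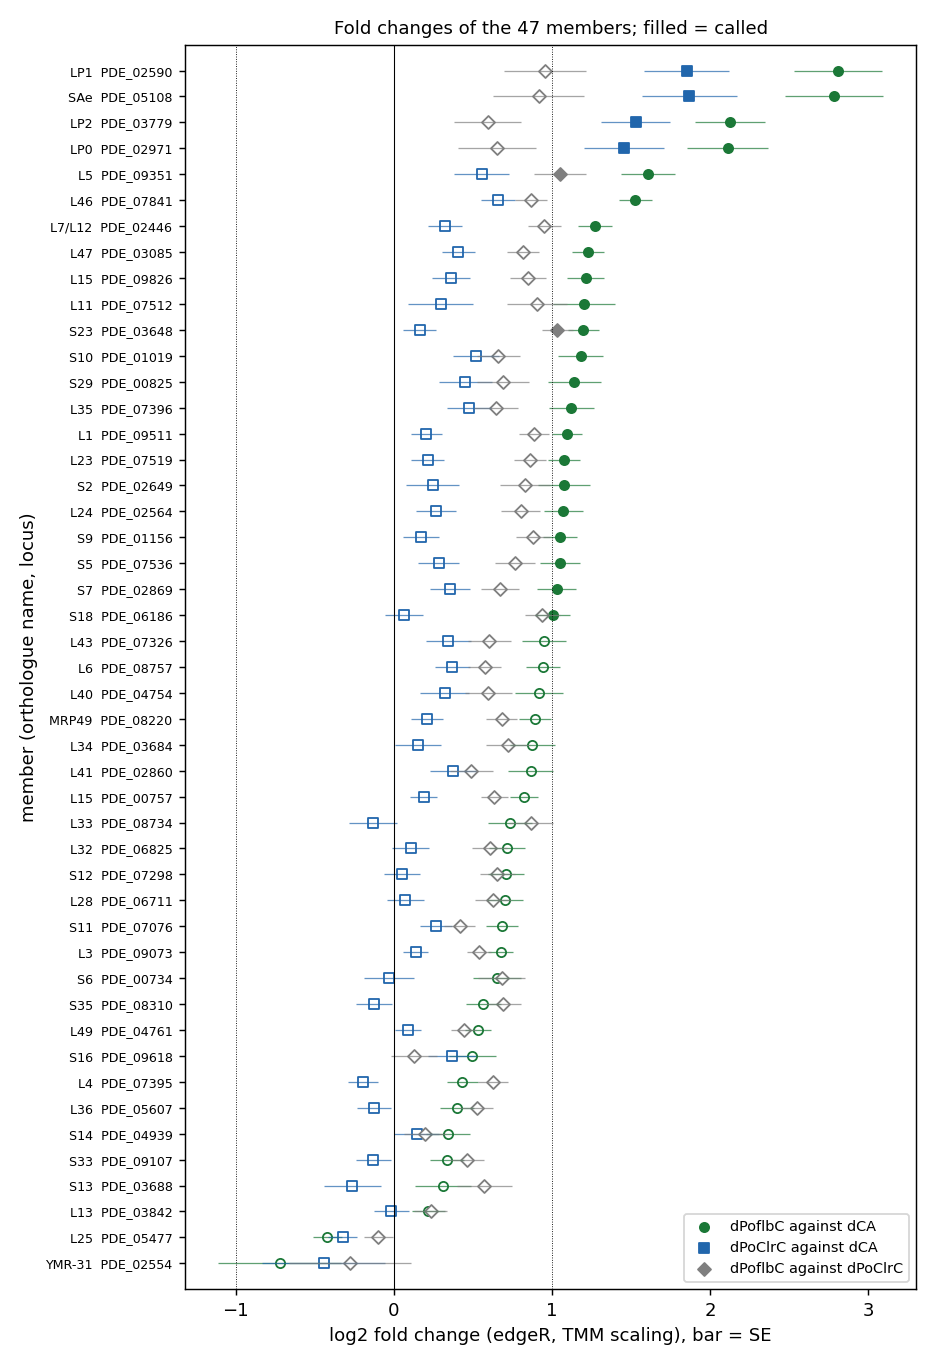
Log2 fold change (edgeR, after TMM scaling) of each of the 47 members in 3 comparisons, sorted by dPoflbC against dCA; horizontal bars are standard errors, filled symbols are called genes and dotted lines mark the fold minimum of 1. The 4 stalk and SA genes are the only members with filled squares (dPoClrC against dCA), and the mitochondrial-type members run from 1.61 (L5) to -0.72 (YMR-31) in dPoflbC against dCA.

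Of the 17 small-subunit members other than SAe, 8 rose in dPoflbC against dCA (47.1%, beside 11.4% of all genes tested). S23 (PDE_03648), a mitochondrial addition to the small subunit, was at 75.97, 75.95 and 76.8 RPKM in dPoflbC, 31.0, 28.4 and 32.8 RPKM in dPoClrC and 25.7, 16.9 and 24.5 RPKM in dCA. Its dPoflbC libraries were nearly equal, and no strain overlapped another. It rose by 1.20 ± 0.10 (adjusted p = 5.11e-06). S10 (PDE_01019), of the head of the small subunit in bacteria, had the lowest mean level of the 47 (38.8 RPKM) and was at 64.6, 61.4 and 65.7 RPKM in dPoflbC, 34.9, 28.9 and 36.3 RPKM in dPoClrC and 22.4, 12.3 and 22.5 RPKM in dCA. It rose by 1.18 ± 0.14 (adjusted p = 5.47e-05). S2 (PDE_02649), the bacterial-type relative of SAe, was at 75.3, 67.7 and 66.5 RPKM in dPoflbC, 34.5, 29.0 and 33.8 RPKM in dPoClrC and 27.2, 13.0 and 27.5 RPKM in dCA and rose by 1.08 ± 0.16 (adjusted p = 0.000258). The change of SAe was 2.79, and the difference between these genes was not tested. The change of S2 was 0.91 and not called without dCA replicate 2. S29 (PDE_00825), a GTP-binding protein known in animals as DAP3, and S5 (PDE_07536), S7 (PDE_02869), S9 (PDE_01156) and S18 (PDE_06186) rose by 1.14, 1.05, 1.03, 1.05 and 1.00. Without dCA replicate 2 these 5, S2, L24 and L35 fell short of the fold minimum, with log2 fold changes of 0.91 (S2) to 1.00 (L35, just under the minimum).

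The remaining members that did not rise were mostly higher in dPoflbC but by less than the fold minimum. S12 (PDE_07298), the protein of the decoding centre in bacteria, was at 122.8, 112 and 112 RPKM in dPoflbC, 64.4, 57.3 and 60.3 RPKM in dPoClrC and 52.1, 33.6 and 57.8 RPKM in dCA. All dPoflbC libraries were the highest, while dPoClrC replicate 2 lay just below dCA replicate 3. Its log2 fold change was 0.71 ± 0.11 (adjusted p = 0.000362). L34 (PDE_03684), among the 3 members of lowest mean level, had 0.88 ± 0.14 (adjusted p = 0.000385), and S6 (PDE_00734) had 0.65 ± 0.15 (adjusted p = 0.00397). S16 (PDE_09618) had 0.50 ± 0.15 (adjusted p = 0.0157). S33 (PDE_09107) was at 172 ± 13.5, 103 ± 9.25 and 91.9 ± 17.996 RPKM in dPoflbC, dPoClrC and dCA, with a change of 0.34 ± 0.11 (adjusted p = 0.0208). Of the other members that were higher with an adjusted p under 0.05 but under the fold minimum, L36 (PDE_05607) had the lowest log2 fold change, 0.40, and L43 (PDE_07326) the highest, 0.95.

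The adjusted p of S13, S14, L13 and YMR-31 missed 0.05 in dPoflbC against dCA, and L25 and YMR-31 lay below 0. S13 (PDE_03688), which bridges to the large subunit in bacteria, had 0.31 ± 0.17 (adjusted p = 0.146), and S14 (PDE_04939) had 0.34 ± 0.14 (adjusted p = 0.0523). L13 (PDE_03842) was at 152, 159 and 142 RPKM in dPoflbC, 99.0, 118 and 100.2 RPKM in dPoClrC and 88.8, 74.1 and 96.7 RPKM in dCA. Its dPoflbC libraries were the highest in RPKM, but after scaling the change was 0.22 ± 0.11 (adjusted p = 0.0985). L25 (PDE_05477) was at 136, 122.9 and 138 RPKM in dPoflbC, 117, 116 and 118 RPKM in dPoClrC and 127, 92.4 and 138 RPKM in dCA. These levels overlapped between all strains in RPKM except that dPoflbC lay above dPoClrC, and dPoClrC was the least variable. After scaling L25 was lower in dPoflbC than in dCA, at -0.42 ± 0.09 (adjusted p = 0.00269, under the fold minimum), and with no scaling it was at 0.15, on the other side of 0.

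YMR-31 (PDE_02554), singled out after its values were seen, departed most from the other members. The baker's yeast protein of this name was first described with the mitochondrial small subunit and was later found in the alpha-ketoglutarate dehydrogenase complex of the tricarboxylic acid cycle. It was at 356, 278 and 242 RPKM in dPoflbC, 331, 295 and 250.2 RPKM in dPoClrC and 211, 493 and 199 RPKM in dCA. The dCA library of replicate 2 was the highest of all 9 and the other dCA libraries were the lowest, so the strains overlapped. No comparison was called: the log2 fold change was -0.72 ± 0.39 in dPoflbC against dCA (adjusted p = 0.13) and -0.44 ± 0.39 in dPoClrC against dCA (adjusted p = 0.387). Without dCA replicate 2 these became 0.07 and 0.34. In RPKM, dCA replicate 2 was the lowest dCA library for each of the other 46 members, and for 76.3% of all genes tested. After TMM scaling it was the lowest for 39 of the 47 members (83.0%) and for 42.9% of all genes tested, and the highest for 6 members (12.8%) and for 40.1% of all genes tested.

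**Figure D3:**
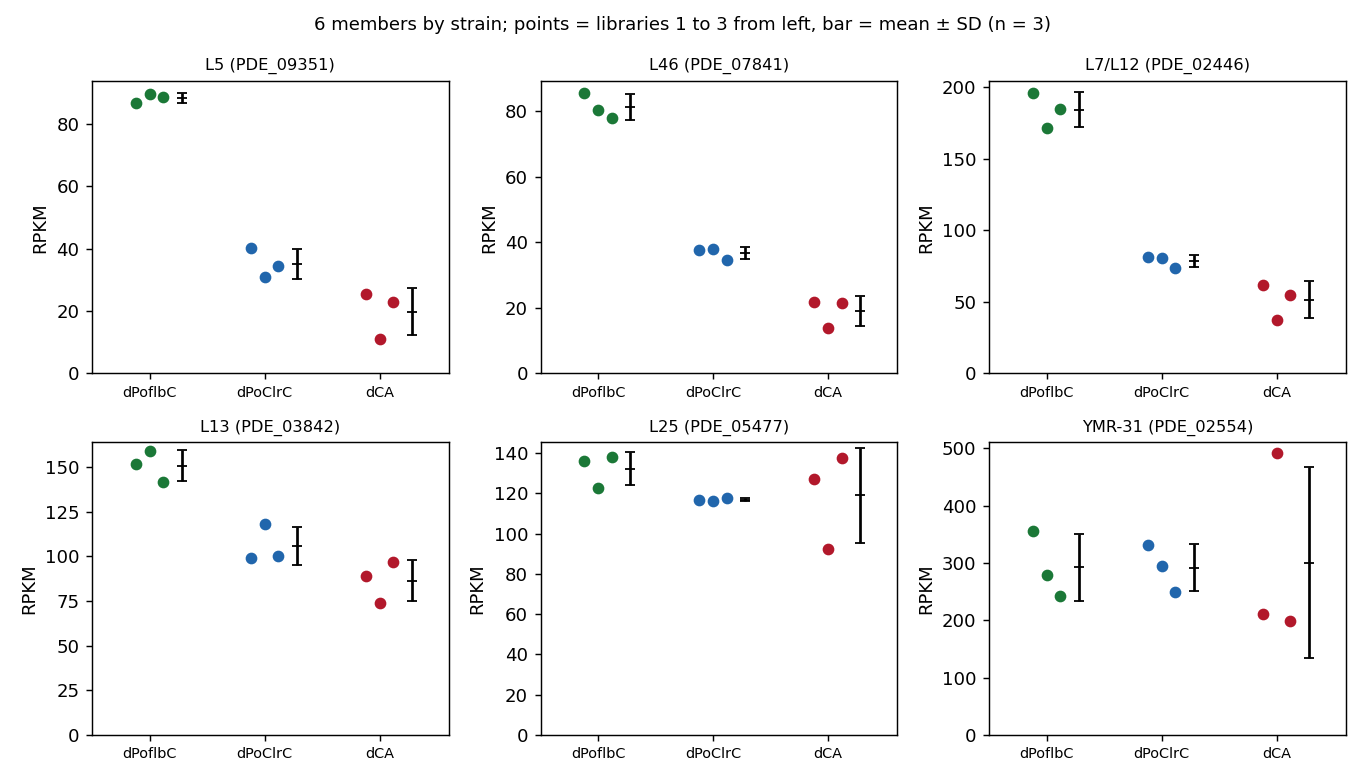
RPKM by strain for 6 members, with points for replicates 1 to 3 from left and mean ± SD (n = 3) beside them; each axis starts at 0. L5, L46 and L7/L12 fall from dPoflbC to dCA with no overlap, L13 and L25 differ less between strains, and YMR-31 reaches 493 RPKM in dCA replicate 2 against 199 and 211 RPKM in the other dCA libraries.

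In dPoClrC against dCA the 4 stalk and SA genes rose and 0 of the 43 mitochondrial-type genes rose or fell (of all genes tested 5.69% rose and 7.35% fell). The median of the 43 was 0.21, with 33 above 0 and 10 below, against 0.00 over all genes tested. By adjusted p alone, 9 of the 43 were higher, a share of 20.9% that is near the 17.9% of all genes tested. With the stalk and SA genes these are 13 members. The number was 6 with only the 6 libraries compared, 7 without dPoClrC replicate 3, 10 without dCA replicate 2 and 28 with no scaling beyond library size. The 9 were L46 (0.66), L5 (0.56), S10 (0.52), L35 (0.48), L47 (0.41), L6 (0.37), the mitochondrial-named L15 (0.36), S7 (0.36) and L7/L12 (0.32). L46 had the smallest adjusted p of the 43 here, 0.00125. L25 was lower by adjusted p alone (-0.32 ± 0.09, adjusted p = 0.0208), beside 19.9% of all genes tested. The members nearest 0 were L13, S6 and S12, at -0.01 ± 0.11, -0.03 ± 0.16 and 0.05 ± 0.11 (adjusted p = 0.927, 0.894 and 0.74). Scaled levels of 18 of the 43 were higher in dPoClrC with no overlap and those of 4 were lower, against 24.4% and 26.3% of all genes tested. Of the 10 below 0, 8 lay above 0 with no scaling beyond library size, and the exceptions were YMR-31 and L25.

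In dPoflbC against dPoClrC, 2 members rose and 0 fell (4.26% of the members; of all genes tested 9.05% rose and 13.6% fell, 22.6% in either direction). They were L5, at 1.05 ± 0.17 (adjusted p = 0.00041), and S23, at 1.03 ± 0.10 (adjusted p = 1.43e-05). Both stood just above the fold minimum, and without dPoClrC replicate 2 they were at 0.98 and just under 1, and not called. By adjusted p alone 42 of 47 were higher and 0 lower, against 27.6% and 29.5% of all genes tested. Scaled levels of 43 lay above those of dPoClrC with no overlap and those of 0 lay below, against 34.9% and 34.8%. The median was 0.66, against 0.01 over all genes tested. L7/L12 (0.95 ± 0.10), S18 (0.94), L11 (0.90 ± 0.19) and L1 (0.89) came next among the 43. Of the stalk and SA genes, LP1 had 0.96 ± 0.26 (adjusted p = 0.00976), SAe 0.92 ± 0.29 (0.021), LP0 0.65 ± 0.25 (0.0444) and LP2 0.59 ± 0.21 (0.0352). The members nearest 0 were L25 (-0.10 ± 0.09, adjusted p = 0.385), S16 (0.13 ± 0.15, 0.467) and S14 (0.20 ± 0.14, 0.233), and L25 was at 0.18 with no scaling.

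The balance between both kinds of ribosomal protein transcript can be read within each library, where scaling between libraries has no part. The median RPKM of the 76 eukaryotic-type genes divided by that of the 43 mitochondrial-type genes was 10.4, 9.70 and 10.3 in dPoflbC, 10.2, 9.07 and 8.27 in dPoClrC and 4.68, 2.26 and 3.87 in dCA. The dPoflbC and dPoClrC libraries overlapped, and all 3 dCA libraries lay below them, replicate 2 the furthest. The stalk proteins gave a like picture in 1 cytosolic and 1 mitochondrial-type gene, chosen after their values were seen. LP1 over L7/L12 was 5.87, 6.53 and 6.18 in dPoflbC, 7.06, 5.75 and 5.61 in dPoClrC and 2.65, 1.29 and 2.28 in dCA. Both are ratios of RPKM, given as descriptions with no test. Together the 47 members took 0.497 to 0.527% of the reads in dPoflbC, 0.245 to 0.285% in dPoClrC and 0.118 to 0.182% in dCA, and the 76 eukaryotic-type genes took 3.87 to 4.10%, 1.69 to 2.26% and 0.304 to 0.892%.

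**Figure D4:**
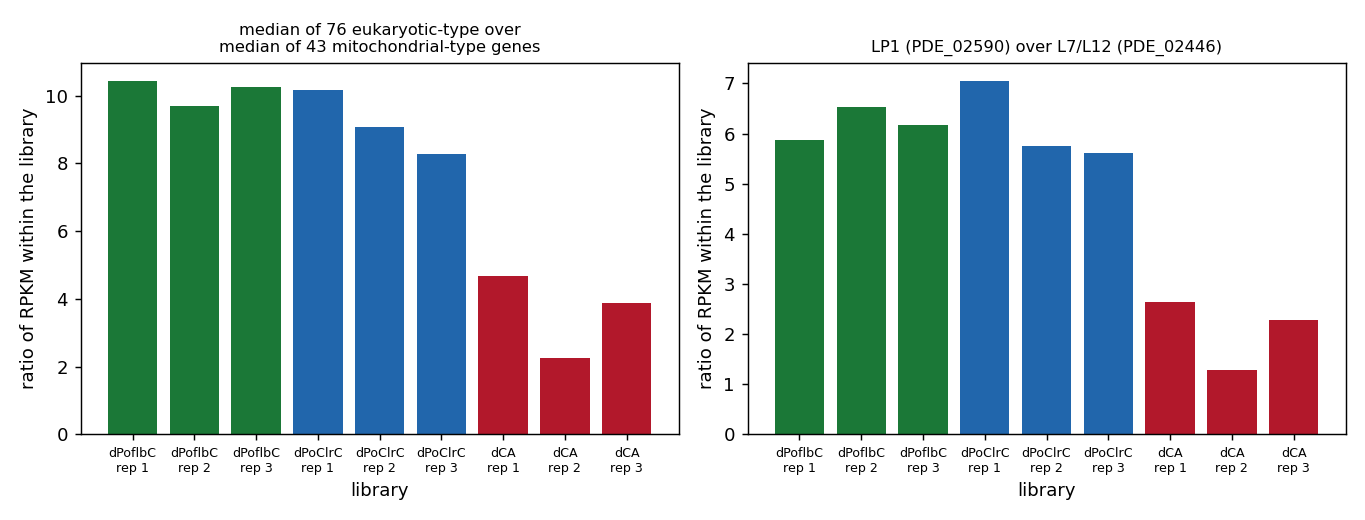
Ratios of RPKM within each of the 9 libraries (bars from 0): on the left the median of 76 eukaryotic-type over the median of 43 mitochondrial-type ribosomal protein genes, on the right LP1 over L7/L12. The left ratio is 9.70 to 10.4 in dPoflbC, 8.27 to 10.2 in dPoClrC and 2.26 to 4.68 in dCA, and the right ratio is 1.29 to 2.65 in dCA and 5.61 to 7.06 in the other strains.

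The size of these differences depends on the scaling. Divided by the TMM factors, the median of the 43 was 82.9, 87.1 and 83.7 in dPoflbC, 57.1, 57.9 and 53.6 in dPoClrC and 49.3, 42.5 and 48.4 in dCA, in scaled RPKM. The median log2 fold change of the 43 in dPoClrC against dCA was 0.21 with TMM and 0.50 with no scaling beyond library size, and in dPoflbC against dPoClrC it was 0.66 and 0.94, so that dPoClrC lay closer to dCA than to dPoflbC with either. With no scaling beyond library size the median of all genes tested in dPoflbC against dCA moved from -0.07 to 0.51, that of the 47 members from 0.95 to 1.51, and 40 members rose. Over all genes tested, 988 rose and 1368 fell with TMM, and 2272 rose and 757 fell with no scaling. Relative to the median of all genes, the members stood 1.02 higher with TMM and 1.00 higher with no scaling. Leaving out the scaling shifts all genes of a comparison by nearly the same amount. This difference could therefore hardly change and is no check on the scaling.

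The medians lay near each other for the kinds of name among the 43. In dPoflbC against dCA the 15 with mitochondrial in the name had a median of 0.92 and 6 rose (40.0%). The 28 with plain bacterial numbers had a median of 0.85 and 12 rose (42.9%). The 26 large-subunit genes had 0.91 (10 rose, 38.5%) and the 17 of the small subunit 0.71 (8 rose, 47.1%). Of all genes tested 11.4% rose, and their median was -0.07. By number, the medians were 0.88 for 19 genes with L1 to L36, 0.94 for 6 with L37 and above, 0.86 for 12 with S1 to S21 and 0.86 for 4 with S22 and above. MRP49 (PDE_08220), a large-subunit protein outside these series, had 0.89. In the other comparisons the medians by subunit were 0.21 and 0.17 (dPoClrC against dCA) and 0.64 and 0.67 (dPoflbC against dPoClrC), large subunit first. These differences between kinds were not tested.

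The other factors of mitochondrial translation were searched by their bacterial-type names, which gave 8 genes, and 3 of them rose in dPoflbC against dCA (37.5%, beside 11.4% of all genes tested). Elongation factor Tu (PDE_00723), which brings transfer RNA to the ribosome, was at 212, 198 and 207 RPKM in dPoflbC, 86.6, 78.7 and 80.9 RPKM in dPoClrC and 62.0, 32.6 and 48.5 RPKM in dCA. The strains did not overlap, and the log2 fold change was 1.55 against dCA and 1.05 against dPoClrC (adjusted p = 4.16e-06 and 6.18e-05). Elongation factor G moves the ribosome along the message, and the name alone does not show which gene of that name has this role. One such gene (PDE_05608) was at 35.7, 40.1 and 34.7 RPKM in dPoflbC, 13.2, 10.6 and 10.2 RPKM in dPoClrC and 9.23, 4.84 and 6.74 RPKM in dCA. It rose in dPoflbC by 1.85 against dCA and by 1.42 against dPoClrC (adjusted p = 3.67e-06 and 1.98e-05). The second gene of that name (PDE_09720) was at 11.4 ± 0.723, 9.44 ± 1.08 and 6.50 ± 1.32 RPKM in dPoflbC, dPoClrC and dCA, with 0.23 (adjusted p = 0.125). The ribosome recycling factor (PDE_00986), which splits the subunits after termination, rose by 1.06. For each of the 3 that rose, dCA replicate 2 was the lowest library. The recycling factor was at 22.5, 13.1 and 20.0 RPKM in dCA. The changes of these genes without dCA replicate 2 are not given here. Release factor 1 (PDE_01496) and initiation factor IF-2 (PDE_02644) had 0.75 and 0.76. In dPoflbC against dPoClrC 3 of the 8 rose (37.5%, beside 9.05% of all genes tested). They were elongation factor Tu, elongation factor G (PDE_05608) and IF-2 (1.01). Initiation factor IF-3 (PDE_00724) and methionyl-tRNA formyltransferase (PDE_02571) had 0.08 and 0.26 (adjusted p = 0.472 and 0.0877). The median of the 8 was 0.76, 0.17 and 0.56 in dPoflbC against dCA, dPoClrC against dCA and dPoflbC against dPoClrC, and none of the 8 was called in dPoClrC against dCA.

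Genes for mitochondrial protein import and for the respiratory chain serve the same organelle. The shares of all genes tested that rose were 11.4%, 5.69% and 9.05% in the 3 comparisons, dPoflbC against dCA, dPoClrC against dCA and dPoflbC against dPoClrC. Of 18 import genes, 2, 0 and 3 rose in these comparisons, which is 11.1%, 0% and 16.7%, with medians of 0.69, 0.10 and 0.61. Of 49 genes of oxidative phosphorylation, 2, 2 and 1 rose, which is 4.08%, 4.08% and 2.04%, with medians of 0.24, 0.11 and 0.12. A search for names of cytosolic initiation and elongation factors gave 42 genes. It also took kinases of initiation factor 2-alpha (PDE_09306 and PDE_07794) and a gene named initiation factor 2C (PDE_04867). Of the 42, 9, 0 and 3 rose (21.4%, 0% and 7.14%), with medians of 0.65, 0.20 and 0.44. In the same order 1, 0 and 1 fell, beside 15.8%, 7.35% and 13.6% of all genes tested. The 75 tested ribosomal protein genes with eukaryotic-type names had 2.33, 1.59 and 0.77. Differences between lists were not tested.

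**Figure D5:**
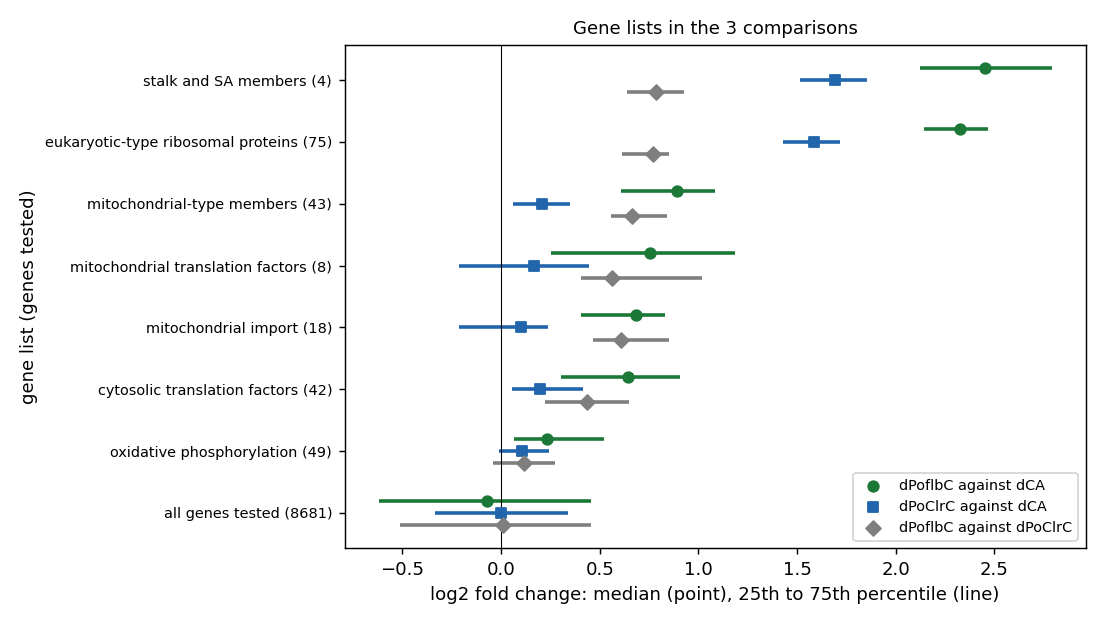
Median (points) and 25th to 75th percentile (lines) of the log2 fold change in 8 gene lists for the 3 comparisons, with the number of genes tested in brackets. The mitochondrial-type members lie at 0.89, 0.21 and 0.66 in dPoflbC against dCA, dPoClrC against dCA and dPoflbC against dPoClrC, while the stalk and SA members lie at 2.46, 1.69 and 0.78.

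A regulator of spore formation differed between the strains as well. BrlA (PDE_00087), which starts the making of asexual spores in related moulds, was at 72.1, 70.8 and 82.3 RPKM in dPoflbC, 10.8, 14.7 and 14.5 RPKM in dPoClrC and 5.71, 1.77 and 3.51 RPKM in dCA. The strains did not overlap, in the order that most members had. BrlA rose by 3.81 in dPoflbC against dCA, by 1.60 in dPoClrC against dCA and by 2.21 in dPoflbC against dPoClrC (adjusted p = 8.73e-07, 0.00126 and 1.37e-05). A second gene of that name (PDE_00079) had 0 to 1.91 RPKM and was not tested, and no other gene was found with the search words for spores. The part of spore formation in the levels of the members was not tested.

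Some members have consecutive locus numbers with differing values. L4 (PDE_07395), which lines the peptide tunnel in bacteria, had 0.43 in dPoflbC against dCA where L35 (PDE_07396) had 1.12. L36 (PDE_05607) had 0.40 where elongation factor G (PDE_05608) had 1.85. Positions and the strand used in counting were not analysed here, so reads shared between overlapping neighbours could not be told apart.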

How the data were processed

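Each of the 9 libraries (3 deletion strains with 3 biological replicates, per the series' design text) was grown and extracted alike, with total RNA taken by RNAiso and Illumina libraries. The submitters' processing notes name CASAVA 1.8; for the aligner, the counter and the genome build, the sources used here give nothing. The deposited table holds whole read counts per gene (unique reads, per the file headers) and RPKM, which the authors computed per kilobase of listed length and per M (1e+06) reads in genes. A dash was read as 0. The listed lengths are coding lengths (99.97% are multiples of 3). Locus numbers matched 0 entries of the reference table.

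Counts were tested with edgeR 4.0.16 (filterByExpr, TMM, glmQLFit and glmQLFTest on all 9 libraries, 1 mean per strain, Benjamini-Hochberg over 8681 genes; SE as the absolute log2 fold change divided by the square root of F). The script was checked on simulated data. Alternatives used DESeq2 1.42.0 and limma 3.58.1 (R 4.3.3). Depth was 6.49 to 7.76 M reads; 3 reads, which a count of 0 allows, are 0.387 to 0.462 reads per M, for counting error only. Members and lists were chosen with earlier results of these data known, so no list was tested. Values are named for the stalk and SA genes, the 10 called members of largest and the 3 members of smallest fold change per comparison, and the 3 of highest and lowest level; the other members were added after their values were seen.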

Additional observations from a re-analysis of the deposited data

How the results depend on the processing

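The 15 alternatives per comparison left the direction of every median of the 47 members unchanged. Counts with no fold minimum come from the main fit and are not among the 15. In dPoflbC against dCA the count of members that rose went from 22 to 40 with no scaling beyond library size, 40, 40 and 39 with limma on RPKM at pseudocounts of 0.5, 1 and 5, and 42 (with 1 lower) with no fold minimum; leaving out 1 library gave 14 (without dCA replicate 2) to 24. The median moved from 0.95 to 1.51 with no scaling and to 1.53, 1.51 and 1.41 with limma, and was 0.84 to 1.04 with 1 library left out. In dPoClrC against dCA the count was 4 in each of the 15 alternatives, and 13 (and 1 lower) with no fold minimum. The median moved from 0.21 to 0.51 with no scaling and 0.53, 0.52 and 0.49 with limma (0.16 to 0.29 with 1 library left out). In dPoflbC against dPoClrC the count went from 2 to 18 with no scaling, 17, 17 and 15 with limma and 42 with no fold minimum, and was 0 (without dPoClrC replicate 2) to 4 (without dPoClrC replicate 1) with 1 library left out; the median moved from 0.66 to 0.94 with no scaling and 0.94, 0.94 and 0.88 with limma (0.64 to 0.69). Over all genes, no scaling moved the median by construction, and the members stood above it by 0.86 to 1.12, 0.14 to 0.29 and 0.63 to 0.68 in the 3 comparisons over the 15 alternatives.

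Over all genes, the count that rose was 2272, 887 and 1289 with no scaling, against 988, 494 and 786 with TMM, and limma on RPKM gave up to 2211, 853 and 1211. Replicate numbers were not taken as pairs, since the correlations of deviations between same-numbered libraries were not all over 0.1 (-0.18 to 0.12), and with the replicate number as a block the counts stayed 22, 4 and 2 and the medians were 0.95, 0.22 and 0.67. Of the 22 members that rose in dPoflbC against dCA, 14 were called in every alternative. The lowest count of a member was 36 reads; 3 libraries per strain limit the precision.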
